A study of Mus musculus with 11 samples.

Results

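Transcripts of 10 hedgehog genes were followed across sorted cells of the mouse adrenal gland, out of 49671 genes in the deposited table. They were chosen by name for their place in the pathway: the ligands Shh and Dhh, the receptor Ptch1, the co-receptors Boc, Cdon and Gas1, the transducer Smo, and the transcription factors Gli1, Gli2 and Gli3. All 10 had counts and all 10 passed the filter on low counts. Every animal was a male of the strain labelled Nes-GFP, in which green fluorescent protein (GFP) is placed under control of sequence from the Nestin gene, which encodes an intermediate filament protein of progenitor, glial and mural cells. Cortex, the outer steroid-producing layer, and medulla, the inner catecholamine-producing core, were taken from 6 mice pooled in 3 groups of 2 mice, and tubes of 180 to 300 sorted cells were turned into libraries. Of the 11 libraries, 3 held GFP-positive and 3 GFP-negative cells of the cortex, and 3 held GFP-positive and 2 GFP-negative cells of the medulla. The animals were about 3.5 months old in libraries 1 and 2 and about 2.5 months old in library 3 of both cortical gates. For the medulla, mice of 3.5 months gave GFP-positive library 1 and the pair of GFP-negative libraries, and mice of 2.5 months gave GFP-positive libraries 2 and 3.

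Hedgehog ligands are secreted, lipid-modified proteins that bind the membrane protein Ptch1. Unbound Ptch1 holds Smo inactive, and ligand binding releases Smo, which acts through the primary cilium on the Gli factors. Gli2 acts mainly as an activator and Gli3 mainly as a repressor, while Gli1 and Ptch1 are themselves transcribed in response to the signal. In the mouse adrenal, Shh is known from subcapsular cortical cells, which signal to Gli1-expressing cells of the overlying capsule. Dhh is known as the ligand of Schwann cells, which acts on the perineurial sheath of peripheral nerves.

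Total counts per library lay between 18500690 and 29204212. Values are given as CPM, a read count divided by the scaled library size and expressed on a common scale. In these libraries 3 counts, used below as the floor, amounted to 0.104 to 0.157 CPM. Labels tie no library to a pool, and libraries of a group may share animals, so the p-values reflect how libraries vary, which can be in part technical. The reporter's source gene Nes lay at 35.3 to 50.9 CPM in cortical GFP-positive against 4.59 to 7.44 CPM in cortical GFP-negative libraries. It lay at 69.2 to 178 CPM in medullary GFP-positive against 16.1 to 26.1 CPM in medullary GFP-negative libraries. The tissue labels were checked against chromaffin markers (Th, Dbh, Pnmt, Chga, Chgb), which summed to 4790.0 to 8787 CPM in medullary GFP-positive and 4797 to 7499 CPM in medullary GFP-negative libraries. In the cortex they summed to 1.29 to 85.4 CPM in GFP-positive libraries, with Pnmt at 0 and library 1 highest, and to at most 0.118 CPM in GFP-negative libraries. Steroid cell markers (Cyp11b1, Star, Cyp11a1, Nr5a1, Mc2r and Hsd3b1) were present in every medullary library. They summed to 19777 to 33990 CPM in GFP-positive and 6515 to 12693 CPM in GFP-negative cells. In the cortex they summed to 54242 to 60833 CPM in GFP-positive and 27910 to 33051 CPM in GFP-negative libraries. The range of medullary GFP-positive libraries thus overlapped that of cortical GFP-negative libraries. The markers did not all follow their sum. In GFP-positive cells, 2 of the 6 were higher and 1 lower in cortex, and 4 were higher and 1 lower in medulla (edgeR). Mc2r had lower means in GFP-positive cells, at 226 against 492 CPM in cortex and 54.1 against 197 CPM in medulla. Neither medullary gate was free of cortical transcripts, which bears on every medullary value below.

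Shh (ENSMUSG00000002633, mm10 chromosome 5, 28456815 to 28467256) was lower in the GFP-positive gate of the medulla, and it had a lower mean that did not pass the test in that gate of the cortex. In the cortex it stood at 3.70, 9.75 and 3.56 CPM in the GFP-positive libraries, against 31.8, 34.8 and 22.5 CPM in the GFP-negative libraries. The cortical gates did not overlap, and even the highest GFP-positive library held less than any GFP-negative one. In the medulla it stood at 0, 1.56 and 1.51 CPM in the GFP-positive libraries, against 21.4 and 18.4 CPM in the GFP-negative libraries. The medullary gates were also separate, and GFP-positive library 1 held 0 Shh counts, which allows up to 0.155 CPM.

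The medullary difference in Shh was -4.24 ± 0.87 on the log2 scale (SE; edgeR quasi-likelihood test, adjusted p = 0.0065), which is 18.9-fold lower in GFP-positive cells. The cortical difference was -2.39 ± 0.75 (adjusted p = 0.0587), or 5.23-fold lower in the GFP-positive mean. The cortical value passed the threshold under 6 of the 19 alternative settings, with adjusted p between 0.0049, without medullary GFP-positive library 1, and 0.0457. Within cortical libraries of 3.5-month-old mice the log2 ratio of Shh was -2.31, and within the single pair from 2.5-month-old mice it was -2.66. In bulk libraries, fewer cells of a type and less RNA per cell cannot be told apart. Markers of the zona glomerulosa, the outermost cortical zone (Cyp11b2, Agtr1b, Agtr1a, Dab2, Vsnl1 and Hsd3b6, all 6 detected in every group) were lower in GFP-positive cells for 6 of 6 in the medulla and 5 of 6 in the cortex (edgeR). Hsd3b6 overlapped between the cortical gates (adjusted p = 0.556). The markers summed to 1390 to 2023 CPM in cortical GFP-positive against 6149 to 7817 CPM in cortical GFP-negative libraries, and to 140 to 239 CPM in medullary GFP-positive against 2306 to 3948 CPM in medullary GFP-negative libraries. Their part in the Shh result was not tested. Per 1000 CPM of those markers, Shh amounted to 1.83 to 6.32 CPM in cortical GFP-positive and 3.61 to 5.66 CPM in cortical GFP-negative libraries, which overlap. The same quotient was 0 to 8.83 CPM in medullary GFP-positive and 5.41 to 7.98 CPM in medullary GFP-negative libraries, which overlap as well. Dab2 and Agtr1a weighed most in the cortical sums. Their means were 697 and 495 CPM in cortical GFP-positive and 3319 and 1249 CPM in cortical GFP-negative libraries. Agtr1b weighed less, at means of 11.9 and 214 CPM in those gates. Quotients to single markers were not taken, so the overlap holds for this sum only.

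Between tissues, Shh averaged 5.67 ± 3.54 CPM in cortical and 1.03 ± 0.889 CPM in medullary GFP-positive libraries (SD, n = 3 each), a log2 difference of 2.44 ± 0.79 that did not pass (edgeR, adjusted p = 0.0659). The libraries of the tissues did not overlap. In GFP-negative cells it averaged 29.7 ± 6.40 CPM in cortex (SD, n = 3) and 19.9 ± 2.10 CPM in medulla (SD, n = 2), and the difference of 0.58 ± 0.80 (adjusted p = 0.67) had an approximate 95% interval of -0.997 to 2.16. The order of the Shh means was therefore cortical GFP-negative, medullary GFP-negative, cortical GFP-positive and medullary GFP-positive, and neither tissue pair within a gate differed past the threshold. The library kit marks no strand, and 446 and 361 of the 2847 exon bases of Shh are shared with the opposite-strand genes 9530036O11Rik and Gm26894. Reads from shared bases cannot be assigned to one of the partners; over all libraries those genes were given 93 and 979 counts, against 2372 for Shh in cortical GFP-negative cells alone.

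**Figure D1:**
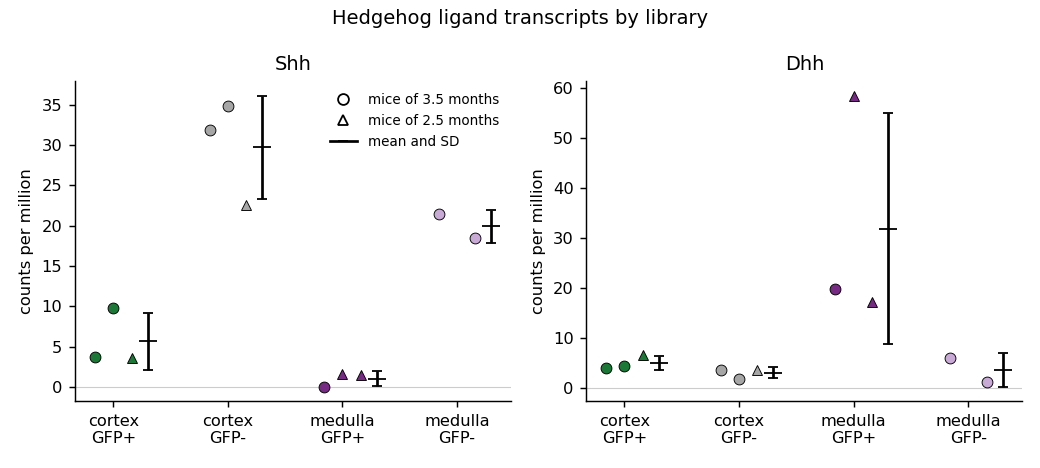
Shh (left) and Dhh (right) in each library, in CPM by group; circles are libraries from mice of 3.5 months, triangles from mice of 2.5 months, and black bars are group means ± SD. Shh was at most 9.75 CPM in the GFP-positive and at least 18.4 CPM in the GFP-negative libraries, and Dhh was at least 17.2 CPM in the 3 medullary GFP-positive libraries and at most 6.58 CPM elsewhere.

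Dhh (ENSMUSG00000023000, mm10 chromosome 15, 98893031 to 98898540) had its highest levels in medullary GFP-positive cells. The values there were 19.7, 58.5 and 17.2 CPM, against 5.95 and 1.14 CPM in medullary GFP-negative libraries. Every GFP-positive library was above both GFP-negative libraries, and GFP-positive library 2 stood well above the other two. The log2 difference was 3.16 ± 0.79 (SE; edgeR, adjusted p = 0.0180), an 8.94-fold higher level in GFP-positive cells. The call ended without medullary GFP-negative library 2 (adjusted p = 0.0898), with only the medullary libraries in the fit (0.0670) and with an age term (0.0566). Among libraries from 3.5-month-old mice, 1 GFP-positive library at 19.7 CPM stood against 2 GFP-negative libraries with a mean of 3.55 CPM.

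In the cortex, Dhh was 3.83, 4.30 and 6.58 CPM in GFP-positive libraries, against 3.58, 1.69 and 3.54 CPM in GFP-negative libraries. The gates did not overlap, but the log2 difference of 0.74 ± 0.64 did not pass (edgeR, adjusted p = 0.4841). Between GFP-positive cells of the tissues, Dhh was lower in cortex than in medulla by 6.49-fold (log2 -2.70 ± 0.66, adjusted p = 0.0212). That call ended without cortical GFP-positive library 1 (0.0746), cortical GFP-positive library 2 (0.0636) or medullary GFP-positive library 2 (0.0842). GFP-negative cells averaged 2.94 ± 1.08 CPM in cortex (SD, n = 3) and 3.55 ± 3.41 CPM in medulla (SD, n = 2), with overlapping libraries (adjusted p = 0.837). The direction of that last difference turned under some settings, so the order of the lower 3 groups is not settled by these libraries.

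Markers of Schwann cells and glia (Sox10, S100b, Erbb3, Cdh19, Foxd3, Gfap and Fabp7) were higher in GFP-positive cells for 7 of 7 in the medulla and 6 of 7 in the cortex (edgeR). All 7 were detected in medullary GFP-positive libraries, where they summed to 1407 to 3298 CPM, against 14.3 to 17.6 CPM in medullary GFP-negative libraries, where Sox10 and Foxd3 were at 0. In the cortex they summed to 118 to 170.3 CPM in GFP-positive against 1.93 to 3.05 CPM in GFP-negative libraries. Medullary GFP-positive library 2 had both the highest glial sum and the highest Dhh. Per 1000 CPM of glial markers, Dhh came to 10.7 to 17.7 CPM in medullary GFP-positive and 79.8 to 337 CPM in medullary GFP-negative libraries. The corresponding range was 25.2 to 55.6 CPM in cortical GFP-positive and 554 to 1837 CPM in cortical GFP-negative libraries. The last range divides by very small sums, mostly Gfap and Erbb3, with means of 1.36 and 0.978 CPM. Gfap overlapped between the cortical gates, at 1.38 to 2.12 CPM in GFP-positive and 1.10 to 1.64 CPM in GFP-negative libraries. Dhh was thus detected in GFP-negative libraries that held few glial transcripts. The part of these markers in the Dhh differences was not tested.

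**Figure D2:**
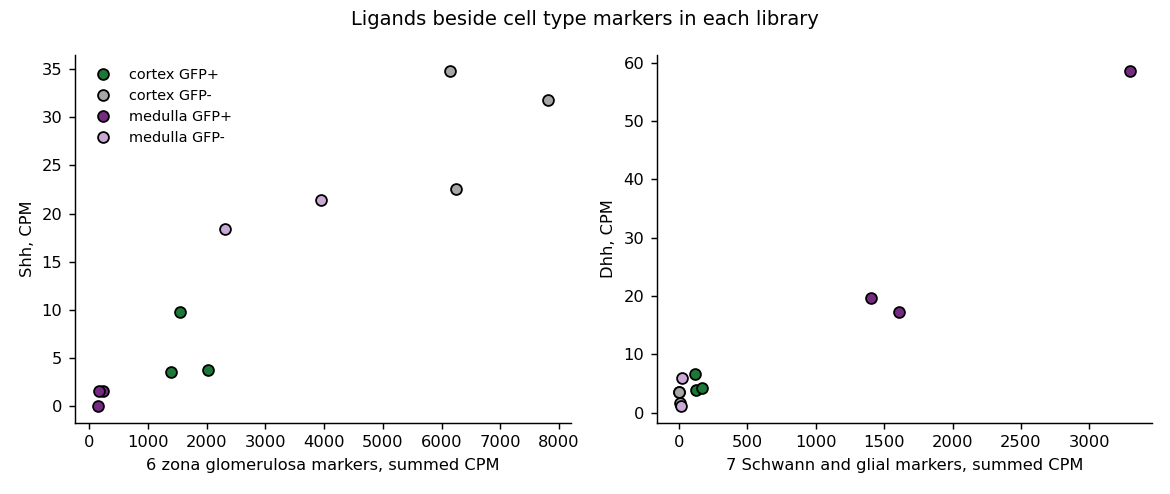
Shh against the summed level of 6 zona glomerulosa markers (left) and Dhh against that of 7 Schwann and glial markers (right), both in CPM; each point is 1 library, coloured by group. The 5 GFP-negative libraries lie at 2306 CPM or more on the left, and the 3 medullary GFP-positive libraries lie at 1407 CPM or more on the right, with the 1 of highest Dhh at 3298 CPM.

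Levels of the ligands were compared with each other per kilobase of exon. In medullary GFP-positive cells Dhh was at 13.5 ± 9.81 and Shh at 0.360 ± 0.312 CPM per kilobase (SD, n = 3). In medullary GFP-negative cells Dhh was at 1.5 ± 1.44 and Shh at 6.98 ± 0.737 CPM per kilobase (SD, n = 2). Of the summed per-length level of both ligands, Shh made up 0 to 6.82% in medullary GFP-positive against 74.9 to 93.1% in medullary GFP-negative libraries. In the cortex its share was 31.0 to 65.3% in GFP-positive against 84.1 to 94.5% in GFP-negative libraries. In each tissue the gates were separate in this share.

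Ptch1 (ENSMUSG00000021466, mm10 chromosome 13, 63508328 to 63573598), the hedgehog receptor, was higher in the GFP-positive gate of the medulla. It stood at 49.7, 60.7 and 37.9 CPM in the GFP-positive libraries, against 14.2 and 11.01 CPM in the GFP-negative libraries. The lowest GFP-positive library was far above the highest GFP-negative one. The log2 difference was 1.97 ± 0.26 (SE; edgeR, adjusted p = 0.0006), or 3.92-fold higher, and it passed under all 19 alternatives. At 3.5 months of age alone, the log2 ratio was 1.98 (1 GFP-positive against 2 GFP-negative libraries).

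Cortical Ptch1 was 25.7, 30.8 and 39.9 CPM in GFP-positive libraries, against 23.4, 23.1 and 22.7 CPM in GFP-negative libraries. The gates were separate, and the log2 difference of 0.48 ± 0.22 did not pass (edgeR, adjusted p = 0.1735). Cortical GFP-positive cells averaged 32.1 ± 7.18 CPM and medullary GFP-positive cells 49.4 ± 11.4 CPM (SD, n = 3 each), with overlapping libraries and a difference that did not pass (log2 -0.62 ± 0.22, adjusted p = 0.0823). In GFP-negative cells Ptch1 was higher in cortex, at 23.1 ± 0.327 CPM (SD, n = 3), than in medulla, at 12.6 ± 2.26 CPM (SD, n = 2; log2 0.87 ± 0.25, adjusted p = 0.0368). That last call ended under 9 of the 19 alternatives, among them the absence of any 1 GFP-negative library of either tissue (adjusted p of 0.0534 to 0.238) or of cortical GFP-positive library 2 (0.0509).

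Dhh and Ptch1 rose together in medullary GFP-positive cells, and their promoters are printed to show what they share. Each is the 300-base window from 250 bases before to 50 after the RefSeq start, on the minus strand of GRCm38.p6. The windows are chr15:98898491-98898790 for Dhh, whose start equals that of the files' gene, and chr13:63565686-63565985 for Ptch1, whose RefSeq start lies 7863 bases inside the files' gene. Capitals mark the GC box letters GGGCGG on either strand.
Dhh: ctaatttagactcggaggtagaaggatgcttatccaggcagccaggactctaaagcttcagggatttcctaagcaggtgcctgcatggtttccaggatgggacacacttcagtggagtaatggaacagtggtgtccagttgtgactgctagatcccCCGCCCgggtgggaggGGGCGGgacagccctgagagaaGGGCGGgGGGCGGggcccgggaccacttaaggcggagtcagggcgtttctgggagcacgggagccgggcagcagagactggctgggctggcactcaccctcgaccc
Ptch1: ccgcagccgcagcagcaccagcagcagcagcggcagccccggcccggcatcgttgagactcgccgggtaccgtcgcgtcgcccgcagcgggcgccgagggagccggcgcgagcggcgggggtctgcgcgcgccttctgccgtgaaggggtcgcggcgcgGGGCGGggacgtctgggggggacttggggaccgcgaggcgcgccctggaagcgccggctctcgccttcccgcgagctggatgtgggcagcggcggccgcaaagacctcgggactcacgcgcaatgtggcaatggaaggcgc
The Dhh window held 4 GC boxes, at -94, -78, -56 and -49 relative to the start, with 12 CpG dinucleotides and 61.7% G and C. The Ptch1 window held 1, at -91, with 47 CpG dinucleotides and 76.3% G and C. GC boxes stood in 35.7% of the 32851 promoter windows of this length, so the match is common. Among the 10 genes, the windows of Gas1, Gli2 and Gli3 held them too, so the box is not particular to Dhh and Ptch1. Neither window held the exact Gli letters GACCACCCA (present in 0.253% of windows on either strand), nor ACAAAG (18.7%) or ACAATG (12.6%), searched as letters of Sox factors. Windows were matched for 7 of the 10 genes, and the other 3 were Shh, Boc and Gli1.

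Co-receptors bind the ligand beside Ptch1 and mostly enhance the signal. Boc (ENSMUSG00000022687, mm10 chromosome 16, 44485049 to 44558897) was higher in cortex than in medulla in both gates. It was 44.3, 49.0 and 49.0 CPM in cortical GFP-positive libraries, against 10.1, 12.4 and 17.4 CPM in medullary GFP-positive libraries. GFP-negative libraries held 53.4, 82.5 and 60.3 CPM in cortex, against 23.7 and 32.7 CPM in medulla. In either gate the lowest cortical library was above the highest medullary one. The log2 difference was 1.83 ± 0.24 in GFP-positive cells (edgeR, adjusted p = 0.0011), which passed under all 19 alternatives. It was 1.21 ± 0.27 in GFP-negative cells (adjusted p = 0.0132), which did not pass without medullary GFP-negative library 1 (0.0744).

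Between gates, Boc was lower in GFP-positive cells of the medulla by 2.12-fold (log2 -1.08 ± 0.26, edgeR adjusted p = 0.0145). The call ended without medullary GFP-negative library 2 (0.116) and with only medullary libraries in the fit (0.0646). In the cortex the difference was -0.46 ± 0.23 and did not pass (adjusted p = 0.2157), although the gates were separate. Per kilobase, Boc was the highest of the 10 genes in both cortical groups, at 10.7 ± 0.614 CPM in GFP-positive and 14.7 ± 3.42 CPM in GFP-negative cells (SD, n = 3 each).

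Cdon (ENSMUSG00000038119, mm10 chromosome 9, 35421128 to 35507652), a relative of Boc with the same kind of immunoglobulin and fibronectin repeats, followed the opposite tissue order. It stood at 1.43, 1.03 and 1.26 CPM in cortical GFP-positive libraries, against 4.23, 5.88 and 6.27 CPM in medullary GFP-positive libraries. In GFP-negative cells it stood at 0.224, 0.073 and 0.276 CPM in cortex, against 1.57 and 4.87 CPM in medulla. Cortical libraries were below medullary ones in both gates. The log2 difference was -4.04 ± 0.65 in GFP-negative cells (edgeR, adjusted p = 0.0032), which passed under all 19 alternatives. In GFP-positive cells it was -2.14 ± 0.56 (adjusted p = 0.0276), and 7 alternatives ended that call, among them the absence of any cortical GFP-positive library or of medullary GFP-positive library 2 or 3 (adjusted p up to 0.0846).

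Cdon was the only gene of the 10 to pass between the cortical gates, being 6.36-fold higher in GFP-positive cells (log2 2.67 ± 0.60, edgeR adjusted p = 0.0148; 0.0529 with limma voom). The cortical GFP-negative values rest on 15 counts over 3 libraries. In the medulla the gates overlapped, with means of 5.46 ± 1.08 CPM in GFP-positive (SD, n = 3) and 3.22 ± 2.34 CPM in GFP-negative cells (SD, n = 2; adjusted p = 0.4204).

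**Figure D3:**
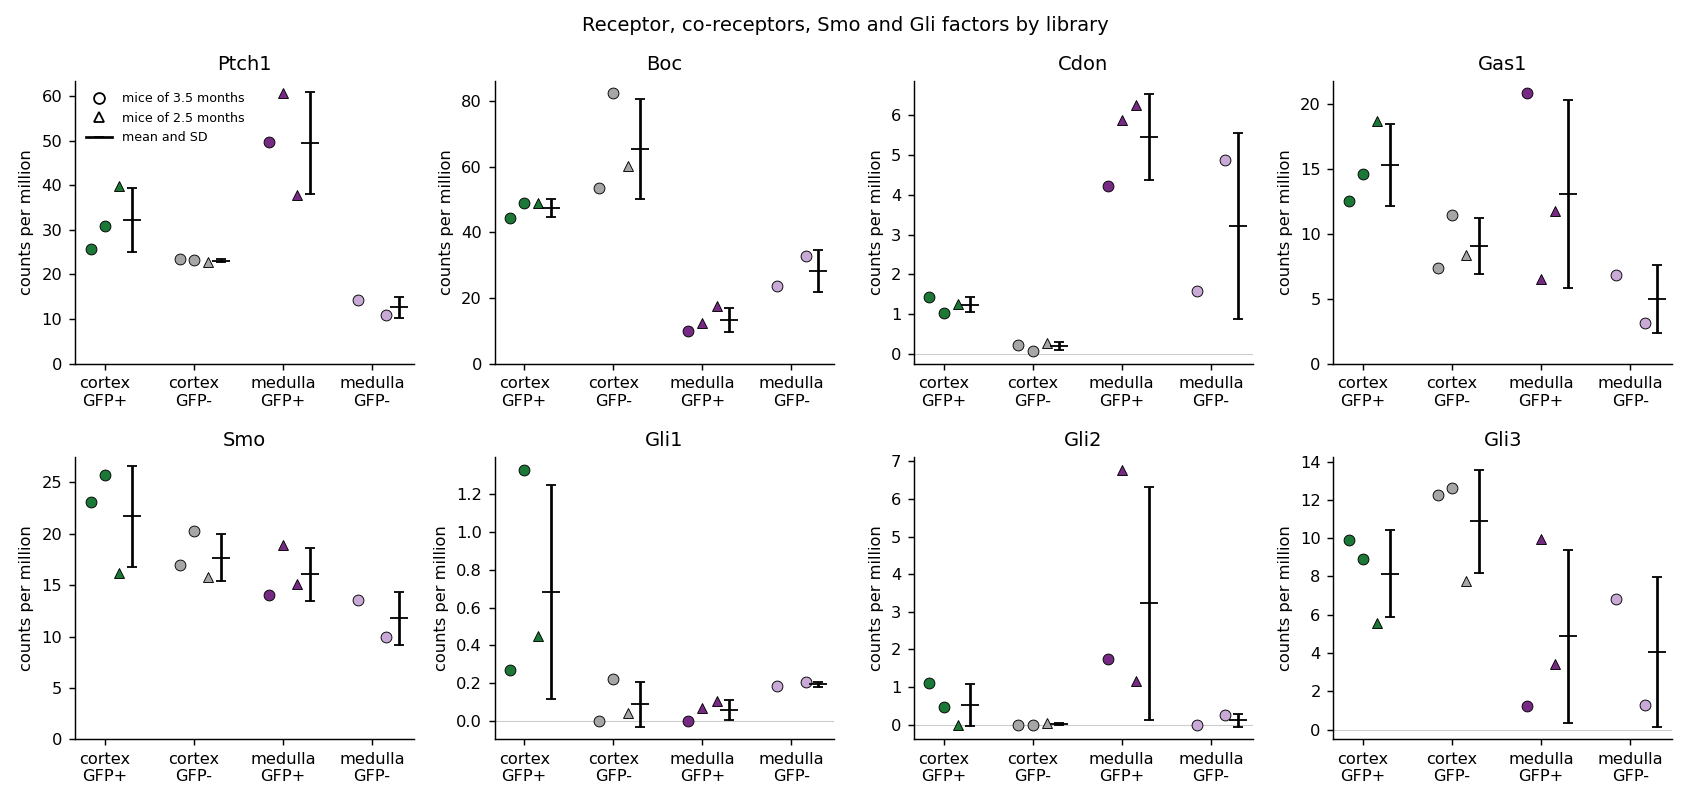
The receptor, co-receptors, transducer and Gli factors in each library, 1 panel per gene, in CPM on separate axes; circles are libraries from mice of 3.5 months, triangles from mice of 2.5 months, and black bars are group means ± SD. Boc is higher in cortical than in medullary libraries of either gate, Cdon shows the opposite order, and Ptch1 is higher in the GFP-positive than in the GFP-negative libraries of the medulla.

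Gas1 (ENSMUSG00000052957, mm10 chromosome 13, 60174405 to 60177365), a lipid-anchored co-receptor, did not pass in any comparison. In the cortex it was 12.5, 14.6 and 18.7 CPM in GFP-positive libraries, against 7.35, 11.5 and 8.35 CPM in GFP-negative libraries, which did not overlap (edgeR, adjusted p = 0.2778). The medullary values were 20.9, 6.50 and 11.8 CPM in GFP-positive libraries, against 6.87 and 3.13 CPM in GFP-negative libraries, which overlapped (log2 1.38 ± 0.51, adjusted p = 0.0804). The medullary value passed without GFP-positive library 2 (0.0290) and with DESeq2 (0.0312). Smo (ENSMUSG00000001761, mm10 chromosome 6, 29735503 to 29761365), the transducer that Ptch1 restrains, had group means of 21.7 ± 4.93 CPM in cortical GFP-positive, 17.7 ± 2.33 in cortical GFP-negative, 16.1 ± 2.56 in medullary GFP-positive (SD, n = 3 each) and 11.8 ± 2.57 CPM in medullary GFP-negative cells (SD, n = 2). Smo passed in none of the comparisons, and its approximate 95% intervals on the log2 scale were -0.17 to 0.75 between the cortical gates and -0.07 to 0.97 between the medullary gates.

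Gli factors were at low counts. Gli1 (ENSMUSG00000025407, mm10 chromosome 10, 127329889 to 127341589), the transcriptional readout of the pathway, had 6, 31 and 10 counts in cortical GFP-positive libraries, against 0, 6 and 1 in cortical GFP-negative libraries. These correspond to 0.267, 1.33 and 0.450 CPM in GFP-positive against 0, 0.220 and 0.039 CPM in GFP-negative libraries. The cortical gates did not overlap, library 2 was highest in both, and the log2 difference of 2.90 ± 1.33 did not pass (edgeR, adjusted p = 0.1767). In the medulla Gli1 had 0, 2 and 2 counts in GFP-positive libraries, against 5 and 5 in GFP-negative libraries, which were separate the other way (log2 -1.64 ± 1.46, adjusted p = 0.4784). Arhgap9, a gene of blood cells on the opposite strand with 4573 counts over all libraries, shares 55 of the 3665 exon bases of Gli1, so some of these few reads may be its own.

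Gli2 (ENSMUSG00000048402, mm10 chromosome 1, 118834132 to 119053619) was counted almost only in GFP-positive cells. It had 25, 11 and 0 counts in cortical GFP-positive libraries, against 0, 0 and 1 in cortical GFP-negative libraries. In the medulla it had 34, 195 and 22 counts in GFP-positive libraries (1.76, 6.78 and 1.15 CPM), against 0 and 6 in GFP-negative libraries (0 and 0.244 CPM). The medullary gates were separate, while the cortical ones overlapped at 0 because cortical GFP-positive library 3 had none. Neither difference passed (edgeR, adjusted p = 0.0999 in cortex and 0.1019 in medulla), and DESeq2 called both (0.0358 and 0.0382). Over the cortical groups, 36 counts stood against 1 count, which is 42.1 times as many per scaled library size, and the 95% counting interval of 7.09 to 1708 leaves out the variation between libraries. The medullary library with most Gli2, GFP-positive library 2, also had the highest glial sum. Its sum over 9 capsule and fibroblast markers was the highest of that group too, 257 CPM against a lowest sum of 101 CPM, with 147 CPM from Col1a2 and 78.8 CPM from Nr2f2, Pdgfra at 0.0695 CPM and Tcf21 at 0. In edgeR, 3 of the 8 such markers tested were lower between the medullary gates and the other 5 did not pass. The sum over 5 pericyte and smooth muscle markers was likewise highest in library 2, 255 CPM against a lowest sum of 97.8 CPM. Of it 222 CPM came from Rgs5, while Notch3 was lowest there, at 4.42 CPM against 13.9 and 9.35 CPM in libraries 1 and 3. The part of these markers in the Gli2 values was not tested.

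Gli3 (ENSMUSG00000021318, mm10 chromosome 13, 15463235 to 15730026) had the highest mean per kilobase of the Gli factors in all 4 groups. In medullary GFP-positive cells it was close to Gli2, at 0.509 ± 0.472 against 0.470 ± 0.450 CPM per kilobase (SD, n = 3). It stood at 9.93, 8.89 and 5.59 CPM in cortical GFP-positive libraries, against 12.2, 12.6 and 7.76 CPM in cortical GFP-negative libraries. The medullary values were 1.24, 9.95 and 3.45 CPM in GFP-positive libraries, against 6.83 and 1.30 CPM in GFP-negative libraries. Gates overlapped in both tissues (edgeR, adjusted p = 0.7509 in cortex and 0.8568 in medulla), and the medullary difference of 0.27 ± 0.81 turned to -0.80 without GFP-positive library 2 and to -0.48 without GFP-negative library 2. Its exons share 188 of 9589 bases with Gm6556, which had 29 counts.

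Within the summed per-length level of the Gli factors, Gli2 took 30.1 to 66.4% in medullary GFP-positive libraries, against 0 to 15.7% in medullary GFP-negative libraries. In the cortex it took 0 to 12.8% in GFP-positive and 0 to 0.694% in GFP-negative libraries. Gli3 made up 33.6 to 64.7% in medullary GFP-positive against 59.9 to 93.5% in medullary GFP-negative libraries, and 68.2 to 82.6% in cortical GFP-positive against 95.6 to 100% in cortical GFP-negative libraries. Gli1 took 5.74 to 26.7% in cortical GFP-positive against 0 to 4.36% in cortical GFP-negative libraries, and 0 to 5.13% in medullary GFP-positive against 6.54 to 24.5% in medullary GFP-negative libraries. The gates did not overlap in the shares of Gli1 in either tissue, in opposite directions, nor in those of Gli2 in the medulla and Gli3 in the cortex. The Gli1 shares rest on few counts.

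**Figure D4:**
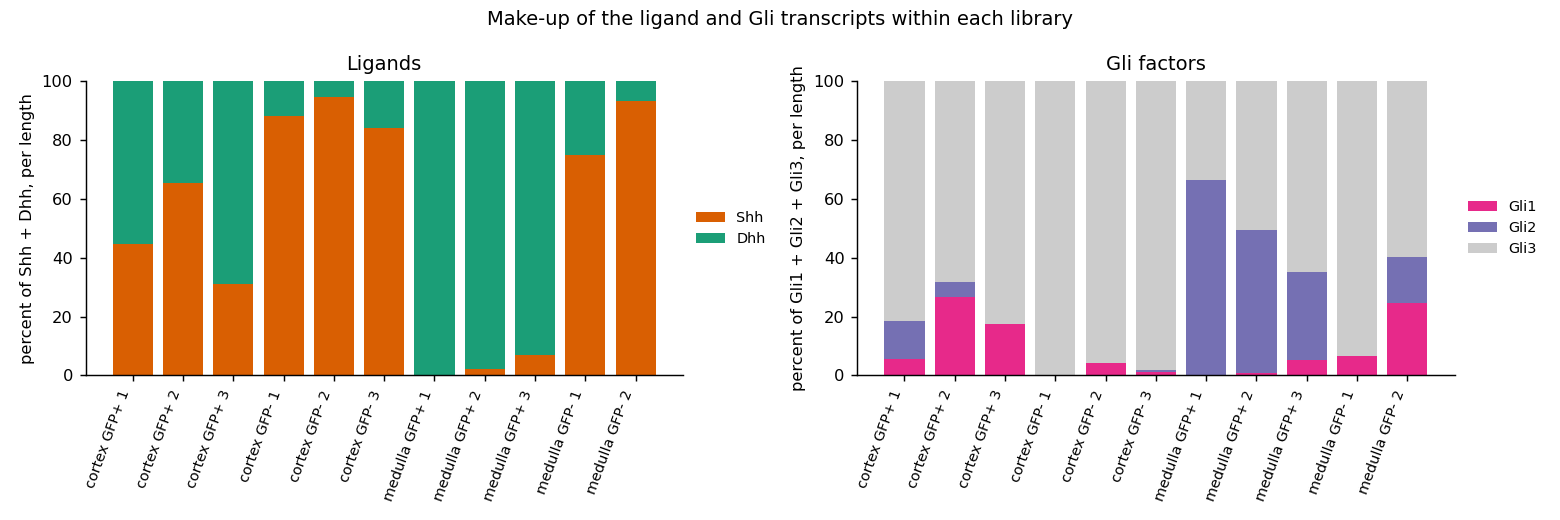
Make-up of the ligand transcripts (left, Shh and Dhh) and of the Gli transcripts (right, Gli1, Gli2 and Gli3) in each library, as percent of their summed level per kilobase of exon; each bar is 1 library. Shh takes 74.9% or more of the ligand level in GFP-negative and 65.3% or less in GFP-positive libraries, and Gli2 takes 30.1% or more of the Gli level only in medullary GFP-positive libraries.

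Between the gates of the cortex, 1 of the 10 genes passed the threshold, against 14.7% of the 20893 genes tested (7.14% higher and 7.59% lower). The median log2 difference of the 10 was 0.61, beside 0.03 over all genes. Libraries of the gates did not overlap for 7 of the 10 (5 higher and 2 lower in GFP-positive cells), against 38.2% of all genes. Between the gates of the medulla, 4 of 10 passed (Dhh and Ptch1 higher, Shh and Boc lower in GFP-positive cells), against 21.4% of all genes (10.2% higher and 11.1% lower), and 7 of 10 did not overlap, against 48.1%. The median there was 0.60, beside 0.09 over all genes.

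Between GFP-positive cells of the tissues, 3 of 10 passed (Boc higher, Dhh and Cdon lower in cortex), against 15.5% of all genes (6.04% higher and 9.45% lower), and 6 of 10 did not overlap, against 34.5%. Between GFP-negative cells, 3 of 10 passed (Boc and Ptch1 higher, Cdon lower in cortex), against 18.6% (8.06% higher and 10.6% lower), and 7 of 10 did not overlap, against 49.5%. Medians of the 10 were 0.33 beside -0.03 in GFP-positive and 0.58 beside -0.02 in GFP-negative cells. The comparisons between gates and between tissues share libraries. With only 10 genes, these counts are given beside the shares of the whole table and are not read as a property of the group.

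**Figure D5:**
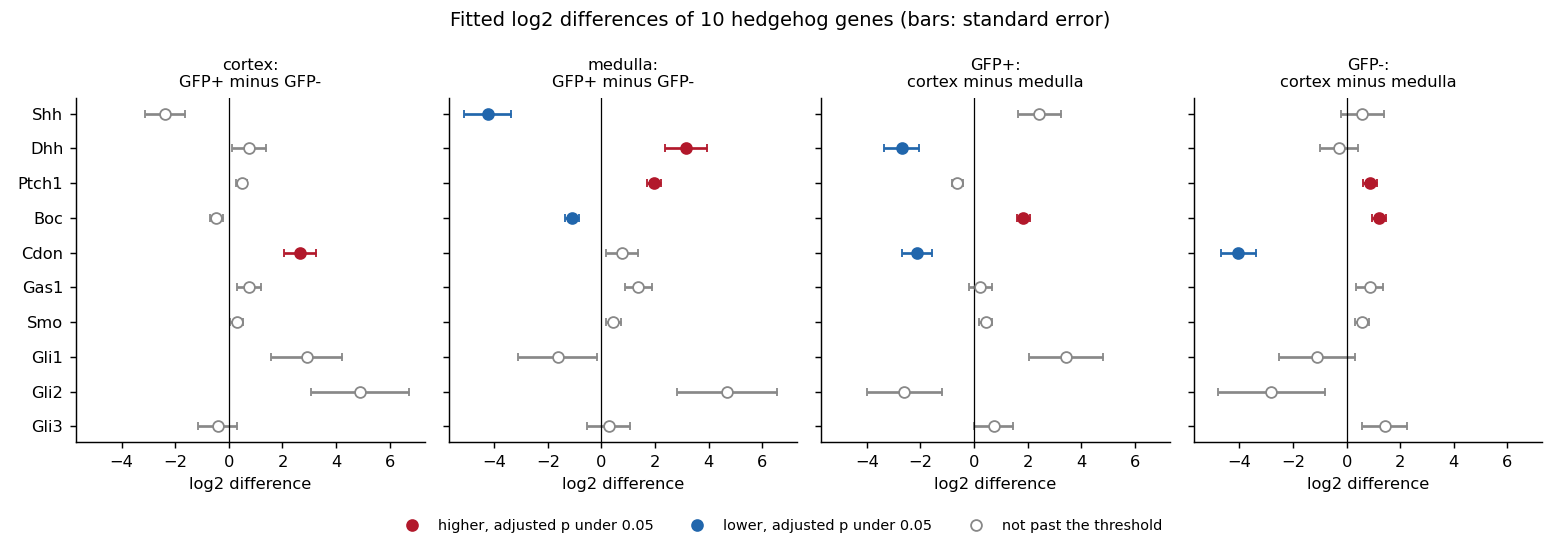
Fitted log2 differences of the 10 genes in the 4 comparisons, GFP-positive minus GFP-negative cells in each tissue and cortex minus medulla in each gate; points are edgeR estimates, bars are standard errors, and filled points passed an adjusted p of 0.05. Shh lies below 0 and Ptch1 above 0 in both gate panels, and Boc lies above 0 and Cdon below 0 in both tissue panels.

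The difference between the gates was itself compared between the tissues, as the cortical minus the medullary gate difference. With edgeR, 0 of the 10 passed, against 1.61% of all genes. DESeq2 called 1 and limma voom 0. Ptch1 came nearest, at -1.49 ± 0.33 on the log2 scale (adjusted p = 0.0567), a smaller GFP-positive excess in cortex than in medulla. It passed with DESeq2 (0.0015), with total counts in place of scaled library sizes (0.0360), without the filter on low counts (0.0480) and without medullary GFP-positive library 3 (0.0462). The values were 1.86 ± 1.10 for Shh (adjusted p = 0.4424), -2.42 ± 0.97 for Dhh (0.2482), 1.91 ± 0.82 for Cdon (0.2783), 0.62 ± 0.35 for Boc (0.4171) and 4.54 ± 1.97 for Gli1 (0.2833). A gate difference in the medulla alone is therefore not shown for Shh, Dhh or Boc, nor for Ptch1 in the main fit.

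The authors' deposited table called 3 of the 10 between the gates of the medulla at an adjusted p of 0.05. In the authors' deposited table Shh had a log2 fold change of -3.88 (adjusted p = 0.0018), Dhh one of 2.95 (0.0252) and Ptch1 one of 1.92 (0.0092). The authors' deposited table called none of the 10 between the cortical gates or between GFP-positive cells of the tissues. The share called over all genes was not taken from those tables, so these counts are not read as a property of the 10.

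The rest of the pathway was read from a list of 43 further genes, of which 38 were tested. Between the cortical gates 3 were higher and 4 lower in GFP-positive cells, beside 7.14% and 7.59% of all genes, with a list median of -0.05 on the log2 scale, beside 0.03 over all genes. Gpc3, a glypican that competes with Ptch1 for ligand, averaged 15.5 CPM in GFP-positive and 0.176 CPM in GFP-negative cells (log2 6.42 ± 0.63, edgeR adjusted p = 0.0003). The GFP-negative mean of Gpc3 rests on 0, 9 and 5 counts. Prkaca, the protein kinase A subunit that marks Gli proteins for processing, averaged 81.1 CPM in GFP-positive and 34.8 CPM in GFP-negative cells (log2 1.22 ± 0.17, adjusted p = 0.0014). Ccnd2, a cyclin known as a hedgehog target in other tissues, averaged 624 CPM in GFP-positive and 1137 CPM in GFP-negative cells (log2 -0.87 ± 0.18, adjusted p = 0.0113). These 3 calls passed without each library in turn, and the other 4, Scube1 higher and Ccnd1, Grk2 and Spop lower, were lost without at least 1 library (adjusted p up to 0.157).

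Between the medullary gates 5 of the 38 were higher and 3 lower in GFP-positive cells, beside 10.2% and 11.1% of all genes, and the list median was 0.42, beside 0.09 over all genes. Gpc3 averaged 51.6 CPM in GFP-positive and 1.32 CPM in GFP-negative cells (log2 5.28 ± 0.65, edgeR adjusted p = 0.0004). Tulp3, which carries receptors into the cilium, averaged 33.1 CPM in GFP-positive and 10.1 CPM in GFP-negative cells (log2 1.72 ± 0.29, adjusted p = 0.0025). Grk2, a kinase that phosphorylates Smo, averaged 31.6 CPM in GFP-positive and 121 CPM in GFP-negative cells (log2 -1.94 ± 0.27, adjusted p = 0.0009). Prkaca, at 69.1 CPM in GFP-positive and 36.7 CPM in GFP-negative cells, passed as well (adjusted p = 0.0079; 0.0638 with only the medullary libraries in the fit). Those 4 passed without each library in turn, while Scube3, Mosmo, Disp1 and Ccnd2 were lost without at least 1 (adjusted p up to 0.193). Disp1, needed to release lipid-modified ligand, was lower in GFP-positive cells in that fit, at 5.94 against 18.0 CPM in GFP-negative cells (adjusted p = 0.0140).

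Macrophage markers (Csf1r, Adgre1, Cd68, Ptprc and C1qa, all detected) moved with the gates as well. They summed to 97.6 to 230 CPM in medullary GFP-positive against 4957 to 5021 CPM in medullary GFP-negative libraries. In the cortex they summed to 21.9 to 83.03 CPM in GFP-positive against 905 to 1501 CPM in GFP-negative libraries. Grk2 is broadly expressed in blood cells, and the part of these markers in its values was not tested.

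Between GFP-positive cells of the tissues, 2 of the 38 were higher and 4 lower in cortex, beside 6.04% and 9.45% of all genes. Disp2, a brain-expressed relative of Disp1, averaged 0.952 CPM in cortical and 57.2 CPM in medullary GFP-positive cells (log2 -5.91 ± 0.96, edgeR adjusted p = 0.0032). Its cortical GFP-positive counts were 55, 0 and 9, and library 1, with the most, also had the highest chromaffin sum of that group. The part of chromaffin transcripts in that mean was not tested. Ccnd2 averaged 624 CPM in cortical and 298 CPM in medullary GFP-positive cells (log2 1.06 ± 0.18, adjusted p = 0.0043). The calls of Disp1 (higher) and of Scube1, Gpc3 and Bcl2 (lower) were lost without at least 1 library (adjusted p up to 0.133). In GFP-negative cells 3 were higher and 5 lower in cortex, beside 8.06% and 10.6% of all genes. There Disp2 averaged 0.114 CPM in cortex and 26.4 CPM in medulla (log2 -7.80 ± 1.178, edgeR adjusted p = 0.0025). Its cortical GFP-negative mean lay near the floor and rests on 6, 0 and 3 counts. Kif3a, a motor subunit of the cilium, averaged 77.0 CPM in cortical and 38.7 CPM in medullary GFP-negative cells (log2 0.99 ± 0.16, adjusted p = 0.0037). Grk2 averaged 33.9 CPM in cortical and 121 CPM in medullary GFP-negative cells (log2 -1.83 ± 0.27, adjusted p = 0.0023). Scube1, Gpc3, Mycn, Ift88 and Ccnd2 were lost without at least 1 library (adjusted p up to 0.139). In the comparison of gate differences edgeR called 0 of the 38, against 1.61% of all genes, DESeq2 called 2 and limma voom 0.

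The 5 listed genes that did not pass the filter on low counts were Ihh, Hhip, Lrp2, Foxf2 and Foxl1. Hhip, a membrane-bound antagonist that is induced by the signal in other tissues, had 0, 262 and 1 counts in medullary GFP-positive libraries, against 0 and 0 in medullary GFP-negative libraries. Its counts came from the same GFP-positive library 2 that was highest for Dhh and Gli2, where it reached 9.11 CPM. With 3 counts over the GFP-negative group as the floor, Hhip was at least 67.7-fold higher in medullary GFP-positive cells, a bound set by that 1 library. Ihh, the ligand of growth plate cartilage, had 2 counts over the cortical GFP-positive and 21 over the cortical GFP-negative libraries.

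Genes whose levels followed the ligands most closely were ranked by Pearson's r of log2 CPM over the 11 libraries among 13314 genes with a mean of at least 5 CPM. The 5 nearest to Shh were Ism1 (r = 0.99), a secreted protein, 1500015O10Rik (0.98), Smpx (0.98), Caln1 (0.98), a calcium-binding protein, and Mst1r (0.98), a receptor tyrosine kinase. The 5 nearest to Dhh were Ctnnal1 (0.97), Ahi1 (0.97), a protein of the ciliary base, Rnd3 (0.96), a small GTPase, Tmem41b (0.95) and Sgcb (0.95), a sarcoglycan. These values describe the libraries, which share 4 groups and their depth.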

How the data were processed

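The authors deposited raw integer counts for each gene in 11 libraries, and 3 tables of comparisons with log2 fold changes, p-values and adjusted p-values per the file headers. Build mm10 and the tools featureCounts 1.6.0, GSNAP, DESeq2 1.18.1, DESeq and bcl2fastq 2.19.1 are listed, per the submitters' processing notes, with no roles. Per the labels' protocols, cDNA was primed on poly(A), amplified over 17 PCR cycles and tagmented, with no molecular identifiers and no strand, so intervals and floors cover counting error only. In the deposited comparison tables, 17 columns of normalized values per library were not used. The 92 spike-in rows, with 10 counts in all, were left out.

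From the counts, 20893 of 49671 genes passed edgeR's filterByExpr and entered the test, run in edgeR 4.0.16 under R 4.3.3 (TMM scaling, quasi-likelihood test, 1 fit of all 11 libraries by group, 7 residual degrees of freedom, Benjamini-Hochberg adjustment over the genes tested, threshold 0.05). A standard error is the fold change divided by the root of F, and approximate. CPM used TMM-scaled library sizes, and levels between genes were divided by exon length. Where a group had no count, a fold is a bound against 3 counts over the group, and with 1 to 3 counts it has a 95% counting interval. The code of the fit was run on simulated data with known fold changes and the same spread for all genes. That run does not show how often the fit errs in these libraries. The members, lists and tests were chosen with earlier results of these data known. The 10 members were all named, and further pathway genes were named when past the threshold, at most 8 per comparison. Some genes of the pathway and marker lists are not reported here and enter no count or sum. Genes outside it (Hhip, Ihh, Lrp2, Foxf2 and Foxl1) were named because the filter left them out. The titles gave each library's tissue and gate. Replicate numbers were not used as pairs: same-numbered libraries' deviations correlated at -0.0085 to 0.0711, under the 0.1 required. Same-numbered values were 0.0337 to 0.0711 between the cortical gates and 0.0265 to 0.0433 between GFP-positive cells of the tissues. Unlike-numbered values in both were below 0. Deviations from a group mean add to 0 within a group, so those values say nothing further about pairing. With the same-numbered values above 0 there, a weak pairing is not excluded, and the main test leaves it out. Alternatives were DESeq2 1.42.0 and limma 3.58.1 (voom), DESeq2 size factors, total counts, no filter, only the groups compared, an age term, a replicate block and each library left out. Promoter sequences are RefSeq's of GRCm38.p6.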

Additional observations from a re-analysis of the deposited data

How the results depend on the processing

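Counts of the 10 genes past the threshold were 1, 4, 3, 3 and 0 for the cortical gates, the medullary gates, GFP-positive cells between tissues, GFP-negative cells between tissues and the difference of gate effects. Between the cortical gates the count was 2 with total counts, without the filter and with only the groups compared, 3 with DESeq2, and 1 to 2 without 1 library. Between the medullary gates it was 2 with only the groups compared, 6 with DESeq2 and 2 to 5 without 1 library, the lowest without GFP-negative library 2. In GFP-positive cells between tissues it was 5 with DESeq2 and 1 to 4 without 1 library, the lowest without cortical GFP-positive library 1 or 2 or medullary GFP-positive library 2. In GFP-negative cells it was 1 to 3 without 1 library, the lowest without medullary library 1. For the difference of gate effects it was 1 with total counts, without the filter and with DESeq2, Ptch1 each time, and 0 to 1 without 1 library.

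Of the 38 wider pathway genes tested, the counts were 7, 8, 6, 8 and 0 in the same order. Without 1 library they were 3 to 7, 4 to 9, 2 to 7, 5 to 9 and 0. DESeq2 called 11 between the cortical gates, 13 between the medullary gates, 10 in GFP-positive cells between tissues and 2 in the difference of gate effects, for which total counts gave 1. Over all genes, leaving out 1 library gave 1959 to 3252 calls against 3078 between the cortical gates, 2956 to 4390 against 4461 between the medullary gates, 2006 to 3370 against 3236 in GFP-positive and 1411 to 4045 against 3892 in GFP-negative cells. DESeq2 called 4537, 5757, 4325 and 5315 of all genes in these comparisons, so its higher counts were general. With only the groups compared, all-gene calls were 3909 between the cortical and 3268 between the medullary gates. The difference of gate effects had 337 calls over all genes, 1553 with DESeq2, 93 with an age term, 176 with the replicate block and 56 to 489 without 1 library.

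Signs turned for uncalled differences only, as ranges without 1 library: Gli3 between the medullary gates (-0.80 to 1.92, below 0 without GFP-positive library 2 or GFP-negative library 2), Gas1 in GFP-positive cells between tissues (-0.10 to 0.74, below 0 without medullary library 2), and in GFP-negative cells Dhh (-1.02 to 1.37, above 0 without cortical library 2 or medullary library 1, and 0.039 with voom) and Gli2 (-4.59 to 1.79, above 0 without medullary library 2). The cause was not tested. With the replicate block in edgeR, 2 calls between tissues did not pass. They were Cdon in GFP-positive cells (adjusted p = 0.0526) and Ptch1 in GFP-negative cells (0.0750). The counts of the 10 genes lay within 1.5 times the main counts. The numbers were not used as pairs in the main test, although each library of the cortex correlated best with its own number. Depth limits Gli1 and Gli2, which rest on few counts, as do the cortical GFP-negative values of Cdon, Gpc3, Disp2 and Scube1. The medullary GFP-negative group has 2 libraries.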
